A study of Homo sapiens with 6 samples.

Results

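The genes described here are the folding, unfolded protein response and translocon genes of the endoplasmic reticulum (ER), 43 of the 58735 genes listed in the deposited tables. They were chosen by symbol as chaperones and their partners, thiol oxidoreductases, lectin chaperones, stress sensors, degradation factors and translocon subunits; no measured value enters this rule, but it was written with earlier results of these data known. Each symbol occurred in 1 row only. Of the 43, 42 had a mean of at least 1 FPKM (fragments per kilobase of exon after scaling by depth) over the 6 libraries and were tested. The remaining gene, DERL3, a derlin of secretory cells, had 1 read in LACTB replicate 3 and was listed at 0 in the other 5 libraries. On the opposite strand 2923 of its 3796 exon bases overlap SMARCB1, listed at 6.68 and 5.71 FPKM on average with empty vector and LACTB, and how shared reads were assigned is not known, so its level is uncertain.

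RNA sequencing compared MUM2B cells, a human line that the labels call melanoma, in 2 stably modified forms: 3 libraries came from cells with an empty vector and 3 from cells overexpressing LACTB, a serine beta-lactamase-like protein of mitochondria. Both forms were grown in RPMI medium with serum and the labels name no drug or other agent that was added. Whether the stable lines are clones or pools, which promoter drives LACTB and whether replicates are separate cultures is not given in the sources used here; the p-values therefore measure the spread between these libraries, which may be technical. LACTB itself stood at 3.81, 3.39 and 4.71 FPKM in empty vector replicates 1 to 3 and at 173.9, 169.3 and 161.5 FPKM in LACTB replicates 1 to 3, so every library matched its label.

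Of 15 melanocyte markers, 14 had a mean under 1 FPKM, OCA2 and TRPM1 were listed at 0 in every library, and RAB38 alone lay above that level (10.9 ± 1.03 and 12.2 ± 0.837 FPKM; SD, n = 3 each). Of 10 epithelial markers, 7 lay under 1 FPKM, CDH1 and EPCAM among them. The keratins KRT8 and KRT18 fell from 184.9 to 163.7 and from 161.8 to 143.8 FPKM, and CLDN4, a claudin, rose from 4.82 to 7.15 FPKM (limma, adjusted p = 0.0124, 0.0205 and 0.00239). Of 8 endothelial markers, 6 lay under 1 FPKM, PECAM1 and VWF among them, while TIE1 stood at 36.3 and 36.3 FPKM and ESAM at 2.10 and 1.75 FPKM. All 8 leukocyte and all 7 fibroblast markers lay under 1 FPKM. The summed level of the 10 epithelial markers was 345.2 to 356.9 FPKM with empty vector and 311.5 to 318.3 FPKM with LACTB, and that of the melanocyte markers 11.4 to 13.7 and 13.7 to 15.1 FPKM; the part of these differences in the results below was not tested. The libraries held 16978799 to 18395631 reads in genes, and the share of mitochondrial transcripts was 3.61% in empty vector replicate 3 against 4.65% to 5.62% in the other 5 libraries.

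The ER is where secreted and membrane proteins enter the secretory pathway. Nascent chains pass through the SEC61 channel, with the SSR (TRAP) complex beside it, and are folded by the HSP70 chaperone BiP, the HSP90 chaperone GRP94, the lectins calnexin and calreticulin and the disulphide isomerases; chains that fail are returned to the cytosol for degradation. When unfolded chains build up, the sensors IRE1 (ERN1), ATF6 and PERK (EIF2AK3) start the unfolded protein response: IRE1 splices XBP1 mRNA, ATF6 is cut to an active factor, and PERK slows translation and raises ATF4. ATF6 and spliced XBP1 act on short promoter elements of folding and degradation genes.

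Those elements are shown first because the genes that carry them moved in different directions. RefSeq promoter windows (250 bases before to 50 after the start, GRCh38.p14) were found for 40 of the 43 genes, 9 of which had more than 1 window. Exact matches were sought on both strands to the ER stress element ERSE (CCAAT and CCACG separated by 9 bases), to ERSE-II (ATTGG and CCACG separated by 1 base) and to the unfolded protein response element UPRE (TGACGTGG). ERSE occurred in 7 of the 40 genes and in 0.0769% of all 35116 windows, ERSE-II in 3 of 40 against 0.0541%, and UPRE in 6 of 40 against 0.729%. A gene counted if any of its windows matched, so genes are set against windows here. By window, 12 of the 52 of these genes, overlapping ones among them, held ERSE or ERSE-II, against 0.131% of all windows. The elements are known as those of folding and degradation genes, so a higher share in this list is not an independent result. Every ERSE match contains a CCAAT and a CCACG, which on their own were common, in 34.6% and 38.1% of all windows. The genes with ERSE were HSPA5, HSP90B1, CRELD2, PDIA6, CALR, CANX and XBP1; those with ERSE-II were HYOU1, SDF2L1 and HERPUD1. These 10 genes did not share a direction in the comparison of LACTB with empty vector given below: 6 fell, 3 rose and 1 passed no threshold. Over all tested genes 17.2% fell and 14.8% rose, and over the 42 tested genes of this list 31.0% and 35.7%. Among the 6 falls, those of CALR and HYOU1 were lost under other settings given below. Whether the elements bear on direction was not tested.

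The 250 bases before the start are printed for XBP1, ERN1, HERPUD1 and PDIA4, the changed genes with the smallest p among those with any of the searched letters, for HSPA5, whose promoter is the best known of this kind, and for HSP90B1 and SDF2L1, which were added after their matches were seen. Capitals mark the searched letters on either strand (ATTGG is CCAAT, and CGTGG is CCACG, on the other strand). Positions are chr22:28800570-28800819 (minus strand) for XBP1, chr17:64130145-64130394 (minus) for ERN1, chr16:56931892-56932141 (plus) for HERPUD1, chr7:149028491-149028740 (minus) for PDIA4, chr9:125241344-125241593 (minus) for HSPA5, chr12:103930160-103930409 (plus) for HSP90B1 and chr22:21642052-21642301 (plus) for SDF2L1.
XBP1: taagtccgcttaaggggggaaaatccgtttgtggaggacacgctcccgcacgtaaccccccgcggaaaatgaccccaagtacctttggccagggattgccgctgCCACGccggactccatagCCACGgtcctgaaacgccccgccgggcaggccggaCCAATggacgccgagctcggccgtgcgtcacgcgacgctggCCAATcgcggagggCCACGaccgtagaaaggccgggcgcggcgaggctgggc
ERN1: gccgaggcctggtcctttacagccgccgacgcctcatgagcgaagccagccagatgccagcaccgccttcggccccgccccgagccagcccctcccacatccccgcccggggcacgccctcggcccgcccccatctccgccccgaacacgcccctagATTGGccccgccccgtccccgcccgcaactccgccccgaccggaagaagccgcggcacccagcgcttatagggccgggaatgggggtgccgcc
HERPUD1: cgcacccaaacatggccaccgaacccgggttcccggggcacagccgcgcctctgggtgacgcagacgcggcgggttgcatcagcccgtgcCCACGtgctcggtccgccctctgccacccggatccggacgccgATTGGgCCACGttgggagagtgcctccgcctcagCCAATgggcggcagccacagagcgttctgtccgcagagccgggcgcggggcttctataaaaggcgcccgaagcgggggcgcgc
PDIA4: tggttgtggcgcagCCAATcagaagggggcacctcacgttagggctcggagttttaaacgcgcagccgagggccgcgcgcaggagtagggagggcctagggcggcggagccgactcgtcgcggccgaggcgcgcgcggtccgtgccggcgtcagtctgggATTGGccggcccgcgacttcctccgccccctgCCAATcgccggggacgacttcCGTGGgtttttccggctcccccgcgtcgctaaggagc
HSPA5: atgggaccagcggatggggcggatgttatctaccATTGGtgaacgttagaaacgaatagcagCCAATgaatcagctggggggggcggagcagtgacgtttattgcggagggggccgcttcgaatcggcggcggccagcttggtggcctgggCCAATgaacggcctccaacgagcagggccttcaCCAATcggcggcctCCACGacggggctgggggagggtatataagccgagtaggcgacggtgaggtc
HSP90B1: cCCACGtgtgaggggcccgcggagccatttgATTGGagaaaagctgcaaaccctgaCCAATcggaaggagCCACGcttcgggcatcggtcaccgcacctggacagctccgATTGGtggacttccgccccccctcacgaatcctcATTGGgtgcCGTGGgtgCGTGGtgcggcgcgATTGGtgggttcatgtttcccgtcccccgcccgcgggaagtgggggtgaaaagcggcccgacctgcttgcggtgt
SDF2L1: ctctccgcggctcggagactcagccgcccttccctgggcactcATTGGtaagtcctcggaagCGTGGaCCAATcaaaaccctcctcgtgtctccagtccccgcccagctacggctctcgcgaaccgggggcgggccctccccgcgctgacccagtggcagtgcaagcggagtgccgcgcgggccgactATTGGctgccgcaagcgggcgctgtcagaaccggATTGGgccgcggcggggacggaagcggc

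Counted from the start, with -1 the base just before it, the ERSE of XBP1 lay at -52 to -34 and that of HSPA5 at -66 to -48, both in the same orientation. HSP90B1 held 2 ERSE matches, at -194 to -176 and, on the other strand, at -89 to -71. The ERSE-II of HERPUD1 lay at -117 to -107 and that of SDF2L1, on the other strand, at -188 to -178. The windows of ERN1 and PDIA4 held none of the 3 full elements in these exact letters. The 2 ERSE-II matches of HYOU1 lay at -185 to -175 and -79 to -69, and the first overlapped its UPRE match at -188 to -181.

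**Figure D1:**
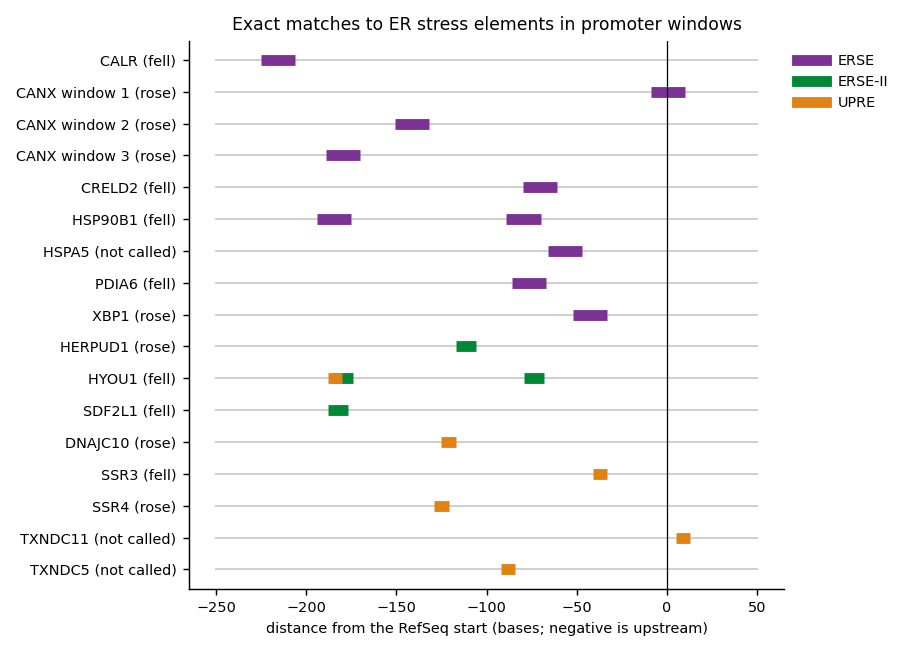
Exact matches to ERSE, ERSE-II and UPRE (coloured bars) along each RefSeq promoter window (grey lines; x axis, distance from the start in bases), with the gene's direction in LACTB cells in brackets. The windows of CANX overlap and show the same match from 3 annotated starts; genes with matches include ones that rose, ones that fell and ones past no threshold.

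Across the 42 tested genes, changes went both ways by role. Sensors with XBP1, degradation factors and translocon subunits held most of the rises, with ERN1, XBP1, HERPUD1 and SYVN1 among them. HSP90B1, PDIA4 and SDF2L1 had the lowest log2 fold changes; of the 10 thiol oxidoreductases 4 fell and 1 rose, and of the 6 J proteins and SDF2 partners 2 fell and 2 rose. In all, 15 genes rose and 13 fell (limma on log2(FPKM + 1), adjusted p under 0.05 over all 11875 tested genes), while 14 passed no threshold. Over all tested genes 32.0% were called, 14.8% as risen and 17.2% as fallen; without LACTB replicate 2 the number of risen genes among all tested was 1132 in place of 1758. Of the 30 listed genes that averaged 10 FPKM or more, 22 were called; the share over all genes at that level was 38.8%.

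The median log2 fold change of the 42 genes was -0.0098, against -0.010 over all tested genes. It turned to 0.0027, 0.0069 and 0.0132 with median-of-ratios scaling, quantile normalization and TPM. Over all tested genes the median also moved under these settings, to 0.0007, -0.0056 and 0.0113. The median size regardless of direction was 0.20 for the 42 genes, against 0.14 over all tested genes. The 2 groups of libraries did not overlap in 34 of the 42 genes, with LACTB higher in 16 and lower in 18; over all tested genes such separation occurred in 47.4%, with LACTB higher in 22.3% and lower in 25.1%. Without empty vector replicate 3, 12 of the genes rose and 12 fell. Under each alternative setting in which they were tested, 10 of the 15 rises and 9 of the 13 falls kept their call.

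**Figure D2:**
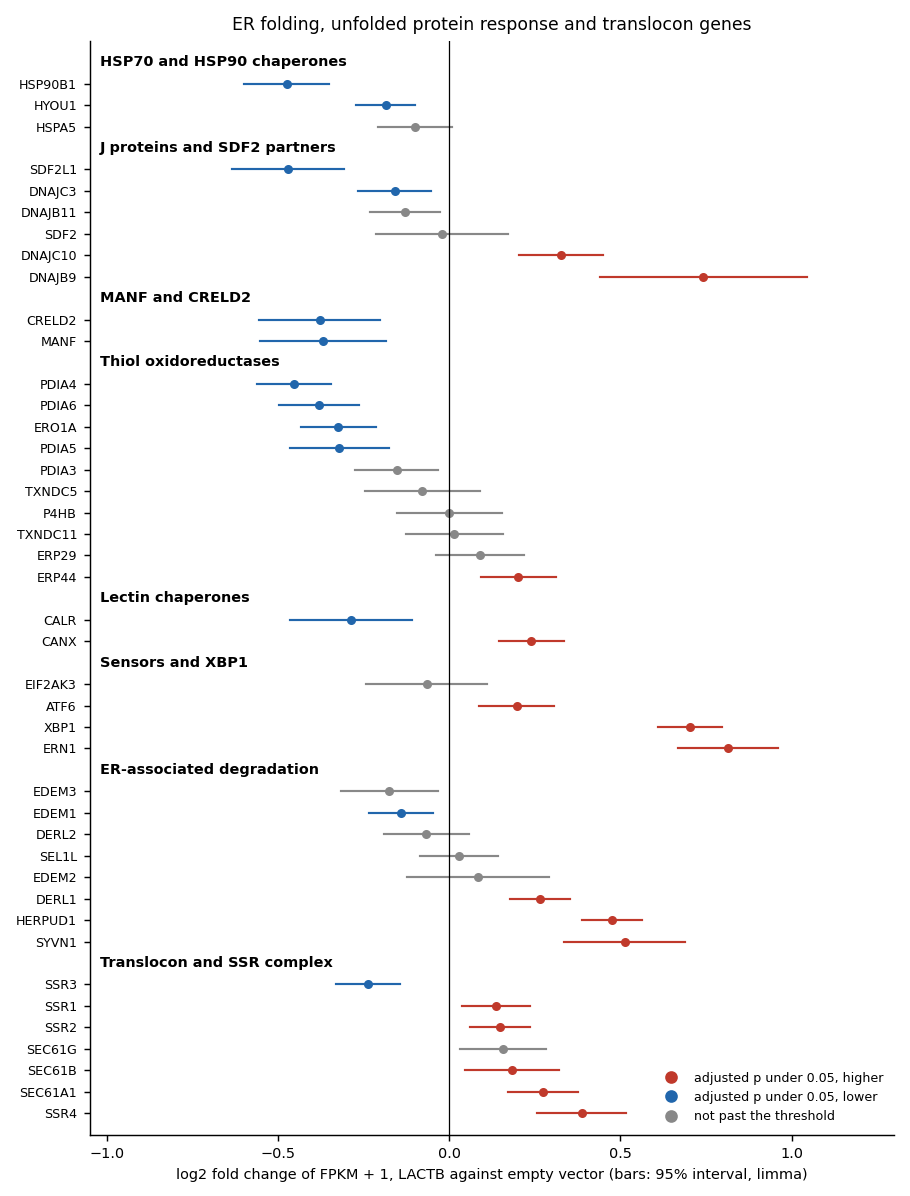
Log2 fold change of FPKM + 1 (x axis, LACTB against empty vector; points with 95% intervals from limma) for the 42 tested genes, grouped by role. Values run from -0.48 for HSP90B1 to 0.81 for ERN1. In the group of sensors and XBP1, 3 of the 4 genes (ERN1, XBP1 and ATF6) lie to the right of 0.

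The largest change among the sensors was that of ERN1, which encodes IRE1, the kinase and ribonuclease that splices XBP1 mRNA. Its level was 1.49, 1.65 and 1.56 FPKM with empty vector and 3.70, 3.43 and 3.39 FPKM with LACTB, in replicate order here and below. All LACTB libraries lay well above the highest empty vector library, on 284 to 728 reads per library. ERN1 was 2.24-fold higher by the ratio of mean FPKM (log2 fold change 0.81, SE 0.062; limma, adjusted p = 0.000169). In a bulk library, more cells expressing a gene and more RNA per cell cannot be told apart.

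XBP1, the transcription factor made active by IRE1, stood at 40.9, 39.5 and 41.9 FPKM with empty vector and at 67.8, 67.5 and 65.7 FPKM with LACTB. The groups were far apart relative to their spread. Its rise was 1.64-fold (log2 fold change 0.70, SE 0.039; limma, adjusted p = 4.27e-05), the smallest p in the list. One value per gene cannot separate spliced from unspliced XBP1, so the activity of IRE1 was not measured.

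ATF6, the sensor that is cut in the Golgi to release a transcription factor, went from 12.4, 12.0 and 11.6 FPKM to 13.95, 14.5 and 13.4 FPKM. All LACTB libraries were above the others, by a small margin. The ratio was 1.159 (log2 fold change 0.20, SE 0.047; limma, adjusted p = 0.0178), and the call was lost without empty vector replicate 2 (adjusted p = 0.0513) or LACTB replicate 2 (adjusted p = 0.0732) and with the replicate block (adjusted p = 0.0542). Over its alternatives the adjusted p ran from 0.0058 to 0.0732.

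EIF2AK3, which encodes PERK, the kinase that phosphorylates the initiation factor eIF2alpha, stood at 1.68, 2.03 and 1.90 FPKM with empty vector and 1.64, 1.76 and 1.82 FPKM with LACTB. The libraries overlapped, and no threshold was passed: the log2 fold change was -0.066 with a 95% interval of -0.24 to 0.11 (limma, adjusted p = 0.544). This gene was covered by only 161 to 200 reads per library. The intervals of ERN1 (0.67 to 0.96) and XBP1 (0.61 to 0.80) lie wholly above its interval; differences between genes were not tested.

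**Figure D3:**
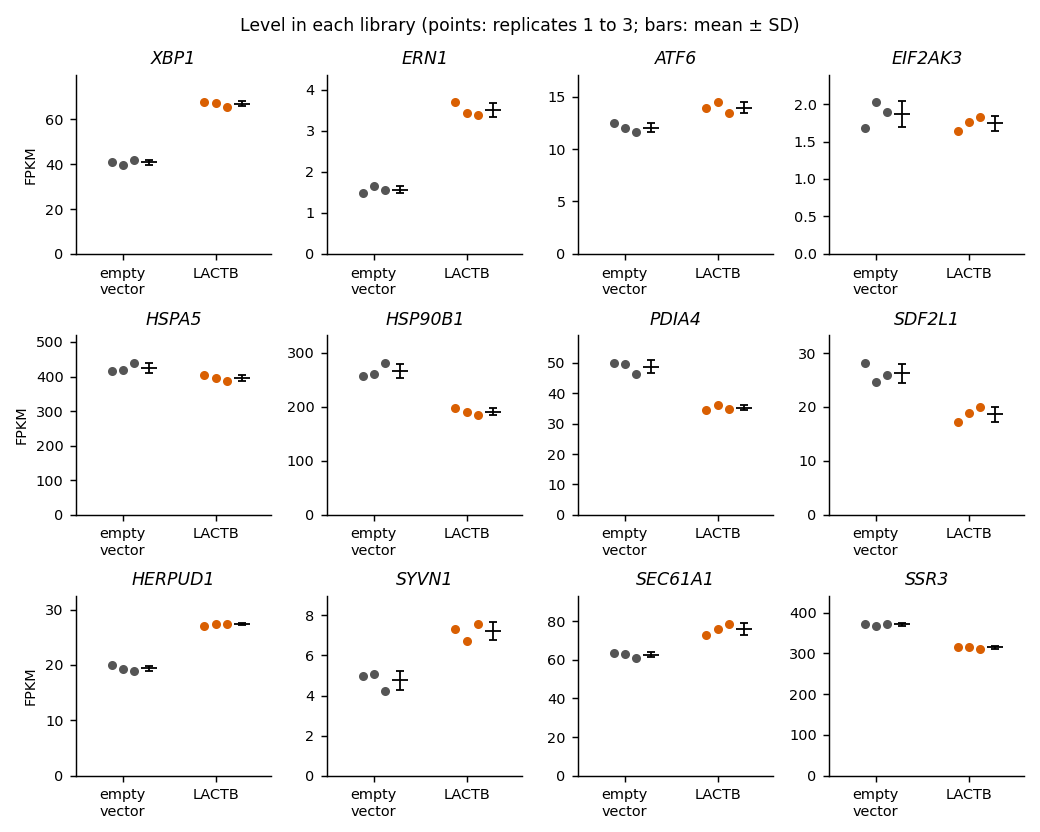
FPKM (y axis, from 0) in each library for 12 genes: points are replicates 1 to 3 of empty vector (grey) and LACTB (orange), and bars are mean ± SD. XBP1 and ERN1 separate widely, and EIF2AK3 overlaps. HSPA5, HSP90B1, PDIA4, SDF2L1 and SSR3 are lower in all LACTB libraries, although HSPA5 passed no threshold. ATF6, HERPUD1, SYVN1 and SEC61A1 are higher in all of them.

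Of the 3 HSP70 and HSP90 chaperone genes of the ER lumen, 2 (66.7%) fell and none rose. Over all tested genes 17.2% fell and 14.8% rose. HSPA5, which encodes BiP and is the most widely used readout of the unfolded protein response, stood at 415.7, 418.3 and 439.7 FPKM with empty vector and 404.6, 396.8 and 386.4 FPKM with LACTB. All LACTB libraries lay below the others, but the difference was small and passed no threshold (log2 fold change -0.10, 95% interval -0.21 to 0.0086; limma, adjusted p = 0.145). It was covered by 26679 to 30973 reads per library.

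HSP90B1, encoding GRP94, went from 256.5, 261.3 and 281.6 FPKM to 198.3, 190.5 and 185.3 FPKM. The highest LACTB library was well below the lowest empty vector library. GRP94 mRNA was 1.39-fold lower (log2 fold change -0.48, SE 0.052; limma, adjusted p = 0.000831), the lowest log2 fold change of the 42. HYOU1, the large HSP70-like protein that exchanges nucleotide on BiP, went from 27.0, 26.4 and 27.2 FPKM to 23.3, 23.1 and 24.0 FPKM. The groups were separate, by a small margin (1.14-fold lower; limma, adjusted p = 0.00941). HYOU1 was no longer called as TPM, which gives every library the same total (adjusted p = 0.0824), or with the replicate block (adjusted p = 0.052), and its adjusted p ran from 0.00363 to 0.0824 over its alternatives.

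The J proteins, which recruit BiP to its clients, divided. DNAJB9 (ERdj4), which brings BiP to IRE1 and to chains bound for degradation, went from 2.73, 2.18 and 1.78 FPKM to 4.09, 3.91 and 5.15 FPKM. The rise was 1.97-fold (log2 fold change 0.74, SE 0.128; limma, adjusted p = 0.00543), on 91 to 263 reads per library, with a wide spread between replicates but no overlap of the groups. DNAJC10 (ERdj5), a J protein with thioredoxin domains that reduces disulphides before degradation, went from 2.63, 2.67 and 2.72 FPKM to 3.75, 3.52 and 3.56 FPKM, 1.35-fold higher (limma, adjusted p = 0.00397).

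DNAJC3 (p58IPK), an ER co-chaperone also described as an inhibitor of PERK, went from 19.9, 21.4 and 19.6 FPKM to 18.1, 18.1 and 17.9 FPKM. It was called as fallen (1.12-fold lower; limma, adjusted p = 0.0327), but the call held only without empty vector replicate 3 and was lost on leaving out any 1 of the other 5 libraries (adjusted p = 0.0632 to 0.0956). DNAJB11 (ERdj3), the BiP partner that binds unfolded chains directly, stood at 24.3 ± 0.435 FPKM and 22.1 ± 0.924 FPKM and passed no threshold (limma, adjusted p = 0.0602; SD, n = 3 each).

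SDF2L1 and its paralogue SDF2 form a complex with DNAJB11. SDF2L1, the paralogue induced by ER stress, went from 28.2, 24.7 and 25.8 FPKM to 17.1, 18.9 and 19.9 FPKM. It was 1.41-fold lower (log2 fold change -0.47, SE 0.070; limma, adjusted p = 0.00288). SDF2 stood at 10.5, 8.91 and 10.9 FPKM and 9.15, 10.3 and 10.3 FPKM, with overlapping groups (log2 fold change -0.020, 95% interval -0.21 to 0.17; limma, adjusted p = 0.875). The interval of SDF2 and that of SDF2L1 (-0.64 to -0.31) do not overlap, and the difference between them was not tested. SDF2L1 carried an ERSE-II match in the window printed above, while neither window of SDF2 held any of the 3 full elements.

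MANF and CRELD2, secreted or ER-retained factors that are induced by ER stress in many cells, both fell. MANF went from 35.0, 31.7 and 37.5 FPKM to 26.7, 24.6 and 28.9 FPKM (1.302-fold lower; limma, adjusted p = 0.0121). CRELD2 went from 8.20, 7.31 and 8.65 FPKM to 5.46, 6.43 and 5.996 FPKM (1.35-fold lower; limma, adjusted p = 0.00937). In both genes every LACTB library was below every empty vector library, with wider spread among replicates than in HSP90B1 relative to the change.

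Of the 10 thiol oxidoreductases, 4 (40.0%) fell, 1 (10.0%) rose and 5 passed no threshold, against 17.2% fallen and 14.8% risen over all tested genes. PDIA4 (ERp72), a disulphide isomerase with several thioredoxin domains, went from 50.05, 49.8 and 46.2 FPKM to 34.6, 36.2 and 35.0 FPKM. It was 1.38-fold lower (log2 fold change -0.45, SE 0.045; limma, adjusted p = 0.00056); no LACTB library reached the empty vector range. PDIA6 (P5), an isomerase that associates with BiP, went from 45.4, 47.7 and 50.6 FPKM to 35.5, 37.0 and 37.1 FPKM (1.31-fold lower; limma, adjusted p = 0.00167).

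PDIA5, a less abundant member of the same family, went from 10.1, 9.23 and 10.6 FPKM to 7.40, 7.73 and 8.22 FPKM (1.28-fold lower; limma, adjusted p = 0.00803). ERO1A, the oxidase that passes electrons from the isomerases to oxygen, went from 23.0, 23.5 and 24.1 FPKM to 19.5, 18.7 and 17.7 FPKM. It was 1.26-fold lower, without overlap between the groups (log2 fold change -0.32, SE 0.047; limma, adjusted p = 0.00261). ERP44, which retains ERO1 and assembles secreted oligomers through disulphides, moved the other way, from 18.3 ± 0.658 to 21.2 ± 0.811 FPKM (SD, n = 3 each). It was 1.159-fold higher (limma, adjusted p = 0.0161), a call lost without empty vector replicate 2 (adjusted p = 0.0517) or LACTB replicate 2 (adjusted p = 0.0673; 0.00629 to 0.069 over its alternatives).

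P4HB, the abundant protein disulphide isomerase itself, stood at 91.1 ± 7.69 and 91.0 ± 1.97 FPKM (SD, n = 3 each). Its log2 fold change was 0.00078, with a 95% interval of -0.15 to 0.15; empty vector replicate 3, at 82.35 FPKM, was the lowest of the 6 libraries. PDIA3 (ERp57), the partner of calnexin and calreticulin, was lower in all LACTB libraries, at 112.3 ± 5.17 and 100.9 ± 4.33 FPKM, and just missed the threshold (limma, adjusted p = 0.0606, 0.0192 to 0.319 over its alternatives). Reads of PDIA3 can be shared with its pseudogene PDIA3P1, listed at 6.10 and 5.83 FPKM on average in the 2 groups.

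ERP29, a chaperone of this family without a redox site, and TXNDC11, a partner of degradation factors, passed no threshold (log2 fold changes 0.090 and 0.015). TXNDC5 (endoPDI) was listed at only 1.31 and 1.19 FPKM and passed no threshold (limma, adjusted p = 0.447). In GENCODE 29, 2658 of its 4387 exon bases are shared with the readthrough gene BLOC1S5-TXNDC5, which was listed at 0 in all libraries. How reads in shared exons were assigned is not given in the sources used here, so the level of TXNDC5 is uncertain.

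The lectin chaperones, which hold glycoproteins during folding, went in opposite directions. CALR, the soluble calreticulin, went from 229.4, 220.4 and 193.9 FPKM to 163.5, 178.7 and 183.9 FPKM. Its groups did not overlap, but the lowest empty vector library, replicate 3, was near the highest LACTB library (1.22-fold lower; limma, adjusted p = 0.026). That call was lost without empty vector replicate 1 or 2 or LACTB replicate 1 or 2 (adjusted p = 0.0674 to 0.0759). CANX, the membrane-bound calnexin, went from 151.9, 156.8 and 151.3 FPKM to 184.2, 183 and 176.2 FPKM, 1.181-fold higher (log2 fold change 0.24, SE 0.040; limma, adjusted p = 0.00493). The 95% intervals, -0.47 to -0.11 for CALR and 0.14 to 0.33 for CANX, lie on opposite sides of 0. Both promoters held an ERSE match.

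Of 8 tested genes of ER-associated degradation, 3 (37.5%) rose and 1 (12.5%) fell, against 14.8% and 17.2% over all tested genes. HERPUD1, a membrane protein that assembles the HRD1 ligase complex, went from 19.9, 19.3 and 19.0 FPKM to 27.1, 27.5 and 27.4 FPKM. The replicates were tight, and the gene was 1.41-fold higher (log2 fold change 0.47, SE 0.037; limma, adjusted p = 0.000191). SYVN1, the ligase HRD1 itself, went from 4.98, 5.09 and 4.22 FPKM to 7.34, 6.70 and 7.59 FPKM, 1.51-fold higher (log2 fold change 0.51, SE 0.075; limma, adjusted p = 0.00275). On the same strand SYVN1 shares exon bases with FAU, listed at 107.3 and 129.4 FPKM on average with empty vector and LACTB, so some of its reads could be assigned to either gene. DERL1, a derlin of the retrotranslocation channel, went from 16.9, 16.7 and 17.1 FPKM to 20.7, 20.9 and 20.0 FPKM, 1.21-fold higher (limma, adjusted p = 0.00235).

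SEL1L, the adaptor that holds SYVN1 in the complex, passed no threshold, at 17.2 ± 0.136 and 17.6 ± 1.000 FPKM (SD, n = 3 each; log2 fold change 0.028, 95% interval -0.085 to 0.14). DERL2 stood at 5.50 ± 0.221 and 5.21 ± 0.253 FPKM (limma, adjusted p = 0.381). The EDEM proteins trim or recognise mannose on chains to be degraded. EDEM1 went from 16.2, 16.9 and 16.8 FPKM to 15.0, 14.6 and 15.4 FPKM and was called as fallen (1.11-fold lower; limma, adjusted p = 0.0349), but leaving out any 1 of the 6 libraries ended the call (adjusted p = 0.0574 to 0.132). EDEM2 and EDEM3 passed no threshold (log2 fold changes 0.085 and -0.17; limma, adjusted p = 0.504 and 0.0654).

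At the translocon, 5 of 7 genes (71.4%) rose and 1 (14.3%) fell, mostly by small amounts, against 14.8% and 17.2% over all tested genes. Only the rises of SEC61A1 and SSR4 and the fall of SSR3 held without any single library. SEC61A1, the pore-forming subunit, went from 63.6, 63.2 and 61.1 FPKM to 72.7, 76.2 and 78.7 FPKM. Every LACTB library was above every empty vector library (1.21-fold higher; log2 fold change 0.27, SE 0.043; limma, adjusted p = 0.00397). The small subunits SEC61B and SEC61G were higher in all LACTB libraries as well, with log2 fold changes of 0.18 and 0.16 that lie on either side of the threshold (limma, adjusted p = 0.0491 and 0.0626). The call of SEC61B was lost on leaving out any library other than LACTB replicate 1 (adjusted p = 0.0525 to 0.143), and SEC61G gained one without empty vector replicate 1 (adjusted p = 0.0421; 0.0311 to 0.199 over its alternatives).

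In the SSR complex, which helps signal sequences open the channel, 3 genes rose and 1 fell. Over all tested genes 14.8% rose and 17.2% fell, and the rises of SSR1 and SSR2 were narrow, as given below. SSR4, its delta subunit, went from 11.3, 10.4 and 10.98 FPKM to 13.8, 15.5 and 14.2 FPKM, 1.34-fold higher (log2 fold change 0.39, SE 0.055; limma, adjusted p = 0.00241). SSR3, the gamma subunit, went from 372.9, 367.5 and 372.9 FPKM to 316.6, 316.8 and 311 FPKM, 1.179-fold lower (log2 fold change -0.24, SE 0.039; limma, adjusted p = 0.00472). The groups of both genes were separate, and their 95% intervals (0.26 to 0.52 and -0.33 to -0.14) lie on opposite sides of 0.

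SSR2, the beta subunit, went from 15.0, 15.1 and 14.5 FPKM to 16.7, 16.4 and 16.7 FPKM (1.12-fold higher; limma, adjusted p = 0.0231), and the alpha subunit SSR1 rose 1.11-fold (limma, adjusted p = 0.0437). Both calls are narrow: that of SSR2 was lost on leaving out any library other than empty vector replicate 2 (adjusted p = 0.0513 to 0.0704), and that of SSR1 on leaving out any of the 6 (adjusted p = 0.0592 to 0.129). By FPKM, a level per exon length, SSR3 with empty vector was far above SSR1, SSR2 and SSR4, at 371.1 against 13.9, 14.9 and 10.9 FPKM. Exon length here covers every annotated transcript of a gene, which lowers the FPKM of genes with long, rarely used exons, so this order of levels depends on the annotation.

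**Figure D4:**
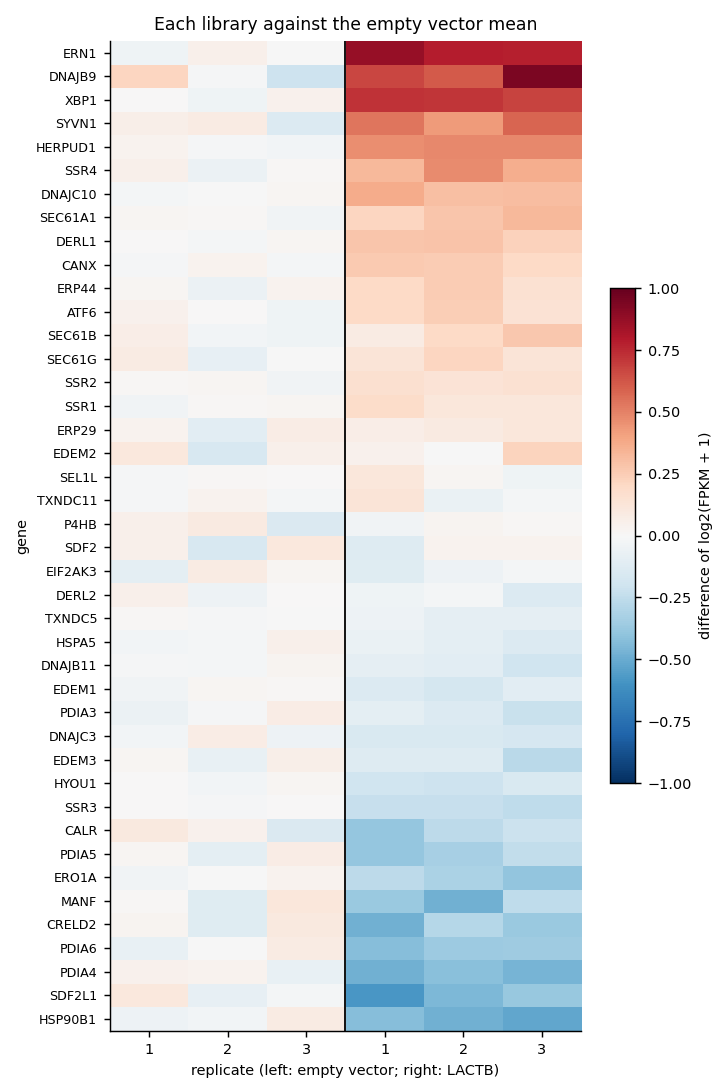
Difference of log2(FPKM + 1) from the empty vector mean (colour) for the 42 tested genes (rows, ordered by log2 fold change) in each library (columns; left, empty vector replicates 1 to 3; right, LACTB replicates 1 to 3). The 3 LACTB columns show the same direction from ERN1 at the top to SSR1 and from TXNDC5 to HSP90B1 at the bottom, and the empty vector columns spread most for DNAJB9.

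Of 114 tested ER genes from 6 lists of neighbouring functions, 16 rose and 13 fell (median log2 fold change 0.019). The share called, 25.4%, was below the 32.0% over all tested genes, so the counts show no excess of change in these lists, and the named genes are examples. Over all tested genes 14.8% rose and 17.2% fell, to be set beside each list that follows. After quantile normalization 26 rose and 9 fell, and as TPM 17 and 6. Without LACTB replicate 2 these counts were 10 and 7, without LACTB replicate 3 they were 13 and 8, and without empty vector replicate 3 they were 17 and 9. In the COPII coat and ER exit list, 5 of 22 (22.7%) rose and none fell; the cargo receptor LMAN1 (ERGIC-53) and the coat subunit SEC23A were 1.29-fold and 1.29-fold higher, and MCFD2, the partner of LMAN1, went from 50.5 to 58.6 FPKM (limma, adjusted p = 0.00203, 0.0011 and 0.00727). The other two, the coat subunits SEC24A and SEC24D, were outside the rule for named genes; SEC24A lost its call in 7 of 17 alternatives, among them leaving out any library other than LACTB replicate 3 (adjusted p = 0.00984 to 0.108 over all). In the list of SRP, other translocation and signal peptidase genes, 3 of 17 (17.6%) rose, including the signal peptidase subunit SPCS1 (12.3 ± 0.855 to 15.7 ± 0.841 FPKM), and 3 (17.6%) fell, including TRAM2 and the SRP subunit SRP9 (limma, adjusted p = 0.00721, 0.00607 and 0.0137).

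Among oligosaccharyltransferase and glycan trimming genes, 2 of 18 (11.1%) rose and 2 (11.1%) fell, both below the shares over all genes. The catalytic subunit STT3A, which works at the translocon, was 1.24-fold higher, while MAGT1, an oxidoreductase of the complex that contains STT3B, was 1.17-fold lower (limma, adjusted p = 0.0049 and 0.00726). Among other oxidoreductases and proline isomerases, 2 of 18 (11.1%) rose and 3 (16.7%) fell, again below them; FKBP9 had the largest change, from 17.4 ± 1.58 to 27.0 ± 0.559 FPKM (1.55-fold; limma, adjusted p = 0.000765), and SIL1, another nucleotide exchange factor of BiP, rose 1.249-fold. In the second degradation list 2 of 21 (9.52%) rose and 3 (14.3%) fell, also below them. The lectin ERLEC1 and TMEM33 rose 1.24-fold and 1.19-fold, and VCP, the ATPase that pulls chains from the membrane, was 1.197-fold lower (limma, adjusted p = 0.0131, 0.0033 and 0.00291).

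Of 18 further ER stress regulators, 2 (11.1%) rose and 2 (11.1%) fell, below them as well. YY1, a cofactor at ERSE promoters, and CREB3L2, a membrane-bound factor related to ATF6, were 1.23-fold and 1.22-fold lower (limma, adjusted p = 0.00343 and 0.0136). The CCAAT-binding subunits NFYA, NFYB and NFYC passed no threshold. The list of the PERK and ATF4 branch held larger changes: 11 of 13 tested genes (84.6%) rose and none fell, with a median log2 fold change of 0.98. The eIF2alpha phosphatase subunit PPP1R15A (GADD34) went from 61.1, 62.3 and 62.2 FPKM to 119, 123.5 and 127.3 FPKM, and the pseudokinase TRIB3 from 20.6 ± 1.23 to 53.9 ± 2.74 FPKM (SD, n = 3 each; limma, adjusted p = 1.08e-05 and 1.25e-05). The stress sensor SESN2 was 4.23-fold higher, with no overlap of the groups. The factors ATF4 and CHOP (DDIT3) were named after their values were seen. ATF4 went from 159.4 ± 3.90 to 263.5 ± 8.57 FPKM and CHOP from 8.96 ± 0.791 to 20.0 ± 0.648 FPKM (limma, adjusted p = 6.57e-05 and 5.31e-05). The activity of PERK was not measured, and what raised the genes of this list was not tested.

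**Figure D5:**
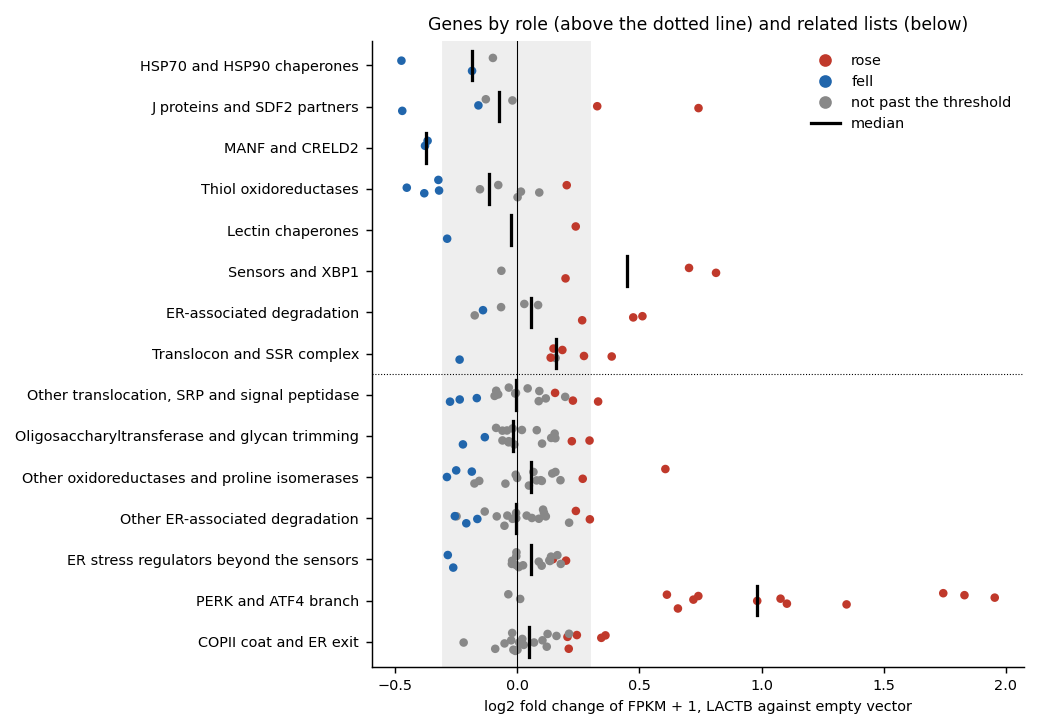
Log2 fold change (x axis) of each tested gene by role and in the related lists (rows; points coloured by call, black bars are medians, grey band spans the 10th to 90th percentile of all tested genes). The PERK and ATF4 branch has a median of 0.98, whereas the medians of the 6 other related lists lie near 0. The group of sensors and XBP1 has a median of 0.45.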

How the data were processed

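RNA of 6 libraries was measured as gene expression. Per the labels' protocols, Trizol was used for extraction, a NEBNext Ultra kit for the libraries and a NovaSeq for paired-end sequencing. The authors deposited FPKM values for 58735 genes per library; the submitters' processing notes name GRCh38, DESeq2 1.16.1, featureCounts 1.5.0-p3 and HISAT2 2.0.5 without roles. Strand use, annotation release and the assignment of shared reads were not given in the sources used here; 27 of the 43 genes share exon bases with another gene, mostly on the opposite strand. All gene IDs matched GENCODE 29, and 27 symbols that had been turned into dates were restored from it. FPKM times exon length gave whole reads for 100% of values above 0 (tolerance 0.1 reads), from which depth was taken.

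The test was limma 3.58.1 in R 4.3.3 on log2(FPKM + 1) with a variance trend, over the 11875 genes averaging 1 FPKM or more, with Benjamini-Hochberg adjustment over all of them and a threshold of 0.05; fold changes on this scale understate changes of low genes. It was also run on simulated reads with the same added spread for all genes and libraries. The real replicates differed unevenly, so that run gives no error rate for these data. Replicates differed by more than counting noise (chi-square per degree of freedom 2.13 to 15.2). The highest values, 14.52 and 15.15, were those of empty vector replicate 3 against replicates 1 and 2. All other pairs lay between 2.127 and 5.725. Same-numbered libraries of the 2 groups did not deviate together (Pearson's r -0.126, 0.019 and -0.044 across genes), so no block was used. The genes and lists were chosen with earlier results of these data known. Genes given with all values are LACTB, up to 4 called genes per role by smallest p and 11 fixed ones; in related lists the rule took up to 3 per direction, 30 in all, and the text gives values only for the 18 of them whose call held without any single library; the other 12 are counted, without values. No protein sequences were used here.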

Additional observations from a re-analysis of the deposited data

How the results depend on the processing

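Results were recomputed with median-of-ratios scaling, a pseudocount of 0.1, no filter on low values, a minimum mean of 5 FPKM, quantile normalization, TPM, no variance trend, robust estimation, a replicate block, voom on recovered reads, summed rows of 1 symbol, and each library left out in turn. No called gene named here changed direction under them. Among the 43 genes the number that rose ran from 10 to 16 and the number that fell from 9 to 15 over all of them; with the replicate block they were 10 and 9, and leaving out 1 library gave 10 to 13 and 10 to 12. Besides the calls lost as given above, HYOU1, DNAJC3, ERP44, CALR, ATF6, EDEM1, SEC61B, SSR1 and SSR2 lost theirs with the block. PDIA3 and EDEM3 gained a call with voom (limma voom, adjusted p = 0.0192 and 0.0282), and SRP9 lost its call without a filter, as TPM and with the block.

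Over all genes, 1758 rose and 2038 fell in the main fit, out of 11875 tested. At a mean of at least 5 FPKM only 6980 genes were tested, of which 1155 rose and 1605 fell, so these counts have a smaller base. With the replicate block, which tested all 11875 genes, 1155 rose and 1324 fell. Leaving out 1 library gave 1132 to 1495 and 1392 to 1810. Of the other ER genes 26 rose after quantile normalization, and 8 fell without a filter, 6 as TPM and 6 with the replicate block; leaving out 1 library gave 10 to 17 and 7 to 11. The PERK and ATF4 branch kept 11 risen and 0 fallen genes in each left-out fit. The median log2 fold change of the members was -0.0204 at a mean of at least 5 FPKM and 0.0027 with median-of-ratios scaling. It was 0.0069 after quantile normalization and 0.0132 as TPM, and ran from -0.0287 to 0.0069 when 1 library was left out. Over all tested genes the medians in the same order were -0.0221, 0.0007, -0.0056 and 0.0113, and -0.0113 to -0.0082 when 1 library was left out. The cause of these shifts was not tested. Depth limits DNAJB9, TXNDC5 and EIF2AK3 most, with at most 263 reads in a library.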
